A study of Arabidopsis thaliana with 10 samples.

Results

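Transcript levels of 6 enzymes and helper proteins of hydrogen peroxide turnover in plastids and cytosol were followed across 5 genotypes. The material was rosette leaves of Arabidopsis thaliana. The genes were TAPX (AT1G77490), SAPX (AT4G08390), GR (AT3G54660, also called ATGR2), GR1 (AT3G24170), AT3G11630, which encodes 2-Cys peroxiredoxin A, and CCS (AT1G12520). They were taken by locus, each had 1 probe set of its own on the ATH1 array, and they stand beside 13286 loci with an assigned probe set in all. CCS is not a peroxidase: as a copper chaperone it loads the superoxide dismutases that produce hydrogen peroxide.

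Each genotype was measured on 2 arrays, and each array held the pooled rosette leaves of 5 mature plants. The lines were ex1/ex2/flu, ex1/flu, ex2/flu and flu, with wild type Columbia as control. The flu mutation (flu1-1) came from Landsberg erecta and had been crossed back to Columbia 5 times, and it was carried by all lines except wild type. Loss of EXECUTER1 (EX1) rested on the T-DNA insertion SALK 002088 and loss of EXECUTER2 (EX2) on SALK 012127, and the triple mutant was picked by genotyping from a segregating population of the cross of ex1/flu with ex2/flu. All plants were raised under constant light (100 µmol m-2 s-1) to the onset of bolting, spent 8 h in darkness and were harvested 30 min after re-illumination. No dark sample was used, so a difference that preceded the light is contained in each value.

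In the dark flu plants build up a chlorophyll precursor that releases singlet oxygen inside the plastid on return to light, and the EXECUTER proteins relay that signal to the nucleus. Hydrogen peroxide is a different oxidant. It arises when superoxide from the photosynthetic electron chain is dismutated, and ascorbate peroxidases on the thylakoid membrane and in the stroma reduce it to water with ascorbate. Glutathione reductases keep glutathione in the reduced form that regenerates ascorbate, and 2-Cys peroxiredoxins reduce peroxides with electrons from thioredoxins. Since the signals come from whole leaves, fewer cells of a type and less RNA per cell cannot be told apart.

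All 6 probe sets were bright, with every signal at least 11.6 times the level of the filter on dim probe sets (the 40th percentile of the array). The lines were checked on the EX1 probe set, whose mean log2 signal was 7.67 in ex1/ex2/flu, 7.92 in ex1/flu and 9.22 in ex2/flu, against 9.59 in flu and 9.42 in wild type. It was lower than flu by a log2 difference of -1.92 ± 0.17 (SE) in ex1/ex2/flu and -1.67 ± 0.17 in ex1/flu (limma adjusted p 1.06e-05 and 0.000303). EX2 and FLU were not checked in this way. The annotation used assigns no gene to 8730 of the 22746 probe sets, so many genes could not be matched to theirs. Of 12 leaf markers 1 was matched, RCA (rubisco activase), with signals of 15260 to 21041 over the arrays. Of 6 inflorescence and 5 root markers none was matched, so other tissues were not checked here.

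None of the 6 genes was called over the 5 genotypes together or in any pairwise comparison made. Those comparisons set flu against wild type and each line lacking EXECUTER genes against flu and wild type. The lines lacking EXECUTER genes were not tested in pairs against each other. Tests were made with limma on log2 signals of all 14435 tested probe sets, and a call needed a Benjamini-Hochberg adjusted p under 0.05. An F test over the 5 genotypes gave adjusted p of 0.319 (AT3G11630), 0.364 (TAPX), 0.434 (SAPX), 0.479 (CCS), 0.504 (GR) and 0.505 (GR1). By that test 5.29% of all tested probe sets were called, against 0 of the 6 genes, and also 0 of the 6 at an unadjusted p under 0.05 (17.4% of all probe sets). The highest signal of a gene over the 10 arrays was 1.33 to 1.69 times its lowest. With 2 arrays on each side the smallest two-sided p of an exact permutation test is 0.333, so the error of each difference comes from the limma fit. The labels give pooled plants but do not say whether the pools grew separately. The p-values therefore rest on the spread between these arrays, together with variance that limma borrows from all tested probe sets. That borrowed part had 10.03 degrees of freedom, against 5 residual ones. For CCS and TAPX the pooled standard deviation within genotypes was 0.07 and 0.08 on the log2 scale. Their pairwise differences had a larger standard error of 0.14.

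**Figure D1:**
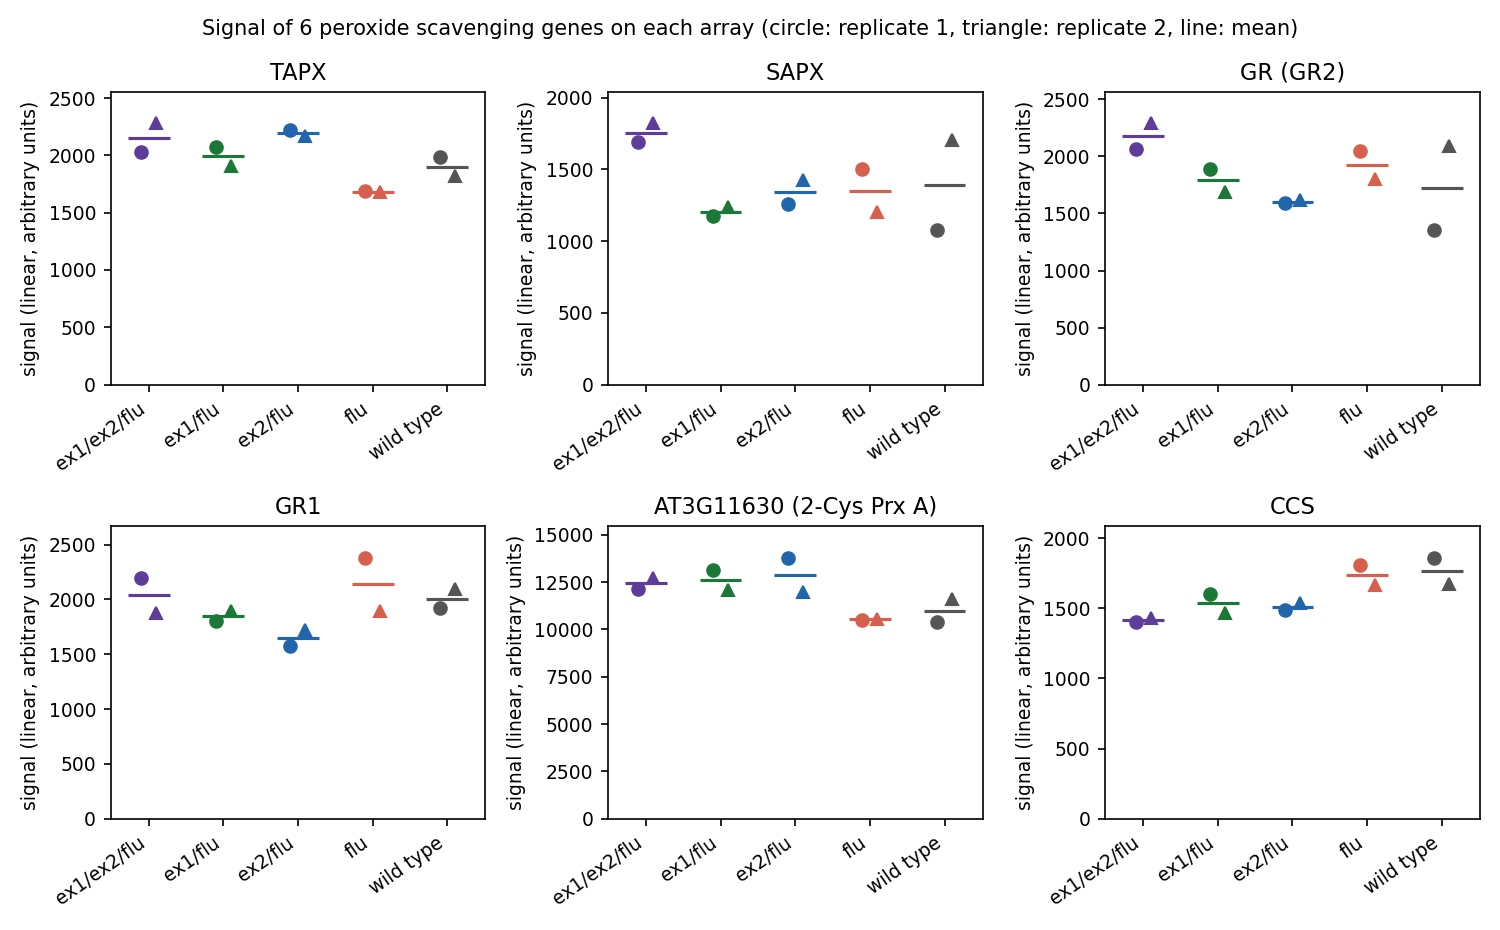
Signal (linear, arbitrary units) of each of the 6 genes on every array, by genotype, with replicate 1 as a circle, replicate 2 as a triangle and the mean as a line. In TAPX both flu arrays lie below the 8 others, in AT3G11630 the 6 arrays of the EXECUTER lines lie above the 4 of flu and wild type, and in CCS they lie below them, while SAPX and GR have widely separated wild type arrays.

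Of the ascorbate peroxidases, TAPX encodes the form bound to the thylakoid membrane. Its signals were 2031 and 2279 in ex1/ex2/flu, 2074 and 1907 in ex1/flu, 2224 and 2172 in ex2/flu, 1688 and 1680 in flu, and 1988 and 1816 in wild type. Both flu arrays were the lowest of all, which was also so for 5.74% of tested probe sets, and the other 4 genotypes overlapped with their neighbours in order of mean. TAPX averaged 1684 ± 5.78 in flu and 1902 ± 122 in wild type (SD, n = 2 each), a log2 difference of -0.17 ± 0.14 (SE, 95% interval -0.47 to 0.12, limma adjusted p 0.609). Against flu its log2 difference was 0.35 ± 0.14 in ex1/ex2/flu (adjusted p 0.205), 0.24 ± 0.14 in ex1/flu (0.481) and 0.38 ± 0.14 in ex2/flu (0.207). These 3 comparisons share the same flu arrays, so they are not separate observations. The largest corresponds to a 1.31-fold higher level in ex2/flu, with a 95% interval of 1.07 to 1.60.

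SAPX encodes the stromal ascorbate peroxidase, which is also imported by mitochondria. It gave 1690 and 1820 in ex1/ex2/flu, 1173 and 1235 in ex1/flu, 1258 and 1426 in ex2/flu, 1502 and 1201 in flu, and 1079 and 1702 in wild type. One wild type array gave the lowest signal of all and the other one was exceeded by a single array, 0.66 log2 units apart, so wild type spanned nearly the whole range of the gene. SAPX averaged 1755 ± 91.9 in ex1/ex2/flu and 1352 ± 213 in flu (SD, n = 2 each), without overlap between their arrays and with a log2 difference of 0.38 ± 0.19 (SE, limma adjusted p 0.357). It was 0.55 without replicate 1 of flu and 0.22 without replicate 2. In flu against wild type the log2 difference was -0.01 ± 0.19, with a 95% interval of -0.43 to 0.40. Neither flu nor ex2/flu nor wild type could be ordered, since their arrays overlapped. The arrays of ex1/flu lay below those of ex2/flu but overlapped with flu and wild type.

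Of the glutathione reductases, GR encodes the form of plastids and mitochondria. Its signals were 2066 and 2290 in ex1/ex2/flu, 1888 and 1692 in ex1/flu, 1592 and 1619 in ex2/flu, 2050 and 1806 in flu, and 1356 and 2089 in wild type. As with SAPX, replicate 1 of wild type was the lowest of the 10 arrays, and the wild type pair was 0.62 log2 units apart. The highest mean was that of ex1/ex2/flu, whose arrays lay above both flu arrays but overlapped with wild type. GR stood at 0.37 ± 0.18 (log2 difference, SE) in ex1/ex2/flu against wild type (limma adjusted p 0.525), at 0.18 ± 0.18 in ex1/ex2/flu against flu (0.708) and at 0.19 ± 0.18 in flu against wild type (0.691). Leaving out replicate 1 of flu gave 0.27 for ex1/ex2/flu against flu, and leaving out replicate 2 gave 0.09. For flu against wild type the values were -0.12 without replicate 1 of wild type and 0.50 without replicate 2.

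GR1 encodes the glutathione reductase of cytosol and peroxisomes. It gave 2197 and 1876 in ex1/ex2/flu, 1803 and 1894 in ex1/flu, 1572 and 1719 in ex2/flu, 2381 and 1894 in flu, and 1920 and 2095 in wild type. The arrays of ex2/flu were the lowest pair and lay below those of every other genotype, and ex1/flu had the next lowest mean. The share of all tested probe sets with such a separation of ex2/flu was not counted. In ex2/flu GR1 averaged 1645 ± 104 and in flu 2137 ± 345 (SD, n = 2 each), a log2 difference of -0.37 ± 0.15 (SE, limma adjusted p 0.288). Without replicate 1 of flu this difference was -0.20 and without replicate 2 of flu it was -0.53. Against wild type, GR1 in ex2/flu stood at -0.29 ± 0.15 (adjusted p 0.383), and the level of ex1/ex2/flu overlapped with both flu and wild type.

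AT3G11630 encodes 2-Cys peroxiredoxin A, an abundant thiol peroxidase of the plastid stroma. Signals were 12123 and 12737 in ex1/ex2/flu, 13144 and 12104 in ex1/flu, 13791 and 12000 in ex2/flu, 10502 and 10560 in flu, and 10381 and 11585 in wild type. All 6 arrays of the EXECUTER lines (12000 to 13791) lay above the 4 arrays of flu and wild type (10381 to 11585), while the 3 EXECUTER lines overlapped among themselves. Against flu the log2 difference was 0.24 ± 0.11 (SE) in ex1/ex2/flu, 0.26 ± 0.11 in ex1/flu and 0.29 ± 0.11 in ex2/flu, with limma adjusted p of 0.301, 0.315 and 0.240 and n = 2 per genotype. The value in ex2/flu was 0.19 without its replicate 1 and 0.39 without its replicate 2. Against wild type the same lines stood at 0.18 ± 0.11, 0.20 ± 0.11 and 0.23 ± 0.11 (adjusted p 0.657, 0.547 and 0.312). Flu and wild type differed by -0.06 ± 0.11. The locus lies within 4 Mb of FLU on the same chromosome, a stretch that may still carry Landsberg erecta sequence in the flu lines, and its part in these values was not tested. Of the other 5 genes none lies that near, although GR1 lies just beyond that distance.

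CCS supplies copper to the copper/zinc superoxide dismutases of cytosol and plastid. It gave 1402 and 1429 in ex1/ex2/flu, 1602 and 1467 in ex1/flu, 1488 and 1537 in ex2/flu, 1807 and 1668 in flu, and 1861 and 1676 in wild type. The split of AT3G11630 returned with the opposite sign: all 6 arrays of the EXECUTER lines (1402 to 1602) lay below the 4 of flu and wild type (1668 to 1861). CCS averaged 1415 ± 19.4 in ex1/ex2/flu and 1769 ± 131 in wild type (SD, n = 2 each), a log2 difference of -0.32 ± 0.14 (SE, limma adjusted p 0.439). Against flu it stood at -0.30 ± 0.14 in ex1/ex2/flu, -0.18 ± 0.14 in ex1/flu and -0.20 ± 0.14 in ex2/flu (adjusted p 0.317, 0.643 and 0.574). Flu and wild type overlapped, at -0.02 ± 0.14.

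The separation of the 6 arrays of EXECUTER lines from the 4 of flu and wild type was noticed after the values were seen and was not tested. It held upward for 1.35% of the 14435 tested probe sets and downward for 2.29%. Over these arrays the mean log2 signal of AT3G11630 was 13.62 in the EXECUTER lines, against 13.39 in flu and wild type together, and that of CCS was 10.54 against 10.77. TAPX averaged 11.04 in the EXECUTER lines and 10.80 in flu and wild type, but the lowest EXECUTER array (1907) lay below the highest of the others (1988). SAPX, GR and GR1 overlapped widely in this arrangement, at log2 differences of 0.07, 0.03 and -0.17.

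Flu against wild type sets plants with the flu mutation against plants without it, after re-illumination. The arrays hold no measure of singlet oxygen. In this comparison 3.84% of all tested probe sets were called by limma and 0 of the 6 genes. At an unadjusted p under 0.05 the counts were 15.2% of all and 0 of 6. The 6 log2 differences ran from -0.17 (TAPX) to 0.19 (GR), with a median of -0.02 against -0.04 over all tested probe sets. Their median size was 0.07, against 0.18 over all probe sets. Only TAPX had arrays that did not overlap between flu and wild type, whereas 48.2% of all probe sets had such arrays. All 6 intervals lay between -0.47 and 0.58, so a 2-fold difference in either direction was outside each of them.

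The lines lacking EXECUTER genes were set against flu to ask what each loss changes. In ex1/ex2/flu 3% of all probe sets were called and 0 of the 6 genes, with an unadjusted p under 0.05 for TAPX (0.0203) and AT3G11630 (0.0454) by limma and for 15.9% of all. The arrays did not overlap for 5 of the 6 (all but GR1), against 52.4% of all probe sets. The 6 log2 differences had a median size of 0.27, against 0.19 over all, and 4 of them were positive. In ex1/flu 1.36% were called and 0 of the 6, with an unadjusted p under 0.05 for AT3G11630 alone (0.0311, and 13.0% of all). Here 4 of the 6 had arrays apart, against 40.2%. In ex2/flu 1.04% were called and 0 of the 6, with an unadjusted p under 0.05 for TAPX (0.0129), AT3G11630 (0.0186) and GR1 (0.0286) and for 14.1% of all. There 5 of the 6 (all but SAPX) had arrays apart, against 46.2%.

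Against wild type the picture was similar in size. In ex1/ex2/flu 1.25% of probe sets were called and 0 of the 6 genes, with an unadjusted p under 0.05 by limma for CCS alone (0.0364, and 10.1% of all). In ex1/flu 1.58% and in ex2/flu 4.77% were called, with 0 of the 6 in either line, and the unadjusted counts were 0 of 6 in both (11.2% and 16.5% of all). The genes with arrays apart from wild type numbered 3 in ex1/ex2/flu, 3 in ex1/flu and 4 in ex2/flu, where 42.8%, 35.5% and 45.9% of all probe sets had such arrays. AT3G11630 and CCS were among them in each line.

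Whether the loss of EX1 acts differently with and without EX2 was read from the interaction of both mutations within flu. Of all probe sets 0.201% were called and 0 of the 6 genes. The interaction on the log2 scale was 0.51 ± 0.22 (SE) for GR1, 0.54 ± 0.26 for GR and 0.55 ± 0.27 for SAPX (limma adjusted p 0.382, 0.430 and 0.463). It was -0.31 ± 0.15 for AT3G11630, -0.27 ± 0.19 for TAPX and 0.08 ± 0.20 for CCS. GR1 (0.0334) and GR (0.0496) had an unadjusted p under 0.05, as did 11.6% of all probe sets.

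Across the 7 pairwise comparisons the 6 genes gave 42 log2 differences, the largest of which was 0.38 in size. Pairs of EXECUTER lines were not among them, and some means lay further apart there. On the log2 scale the means spanned 0.54 for SAPX (ex1/ex2/flu to ex1/flu) and 0.44 for GR (ex1/ex2/flu to ex2/flu). All 42 of the 95% intervals lay within a 2-fold difference in either direction, and 32 lay within 1.5-fold. The outermost bounds were -0.69 (GR1 in ex2/flu against flu) and 0.80 (SAPX in ex1/ex2/flu against flu). A p that misses the threshold does not show that levels were equal.

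**Figure D2:**
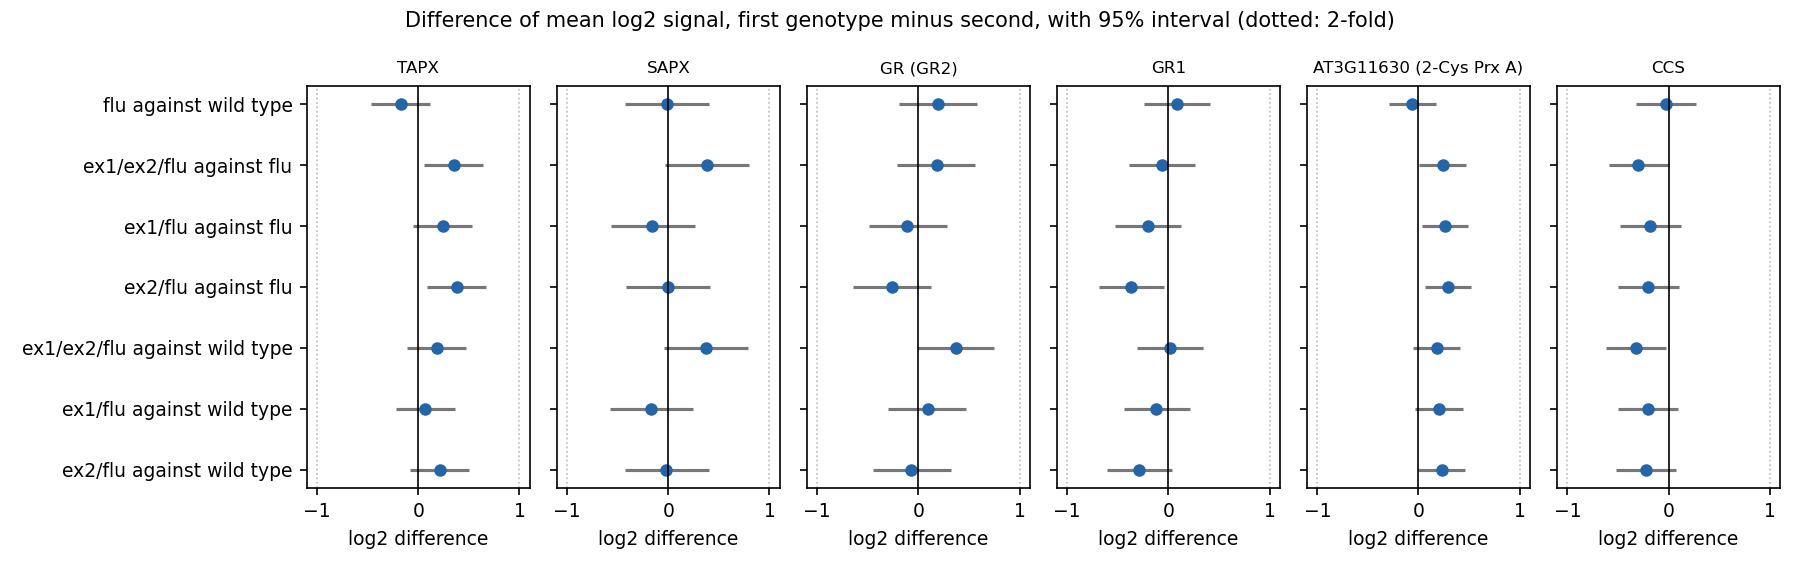
Log2 difference (first genotype minus second) of each gene in the 7 pairwise comparisons, with limma's 95% interval as a bar and dotted lines at a 2-fold difference. Every interval stays inside the dotted lines, and the narrowest are those of AT3G11630.

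The genes differed in how well their replicates matched. The pooled standard deviation within genotypes was 0.07 for CCS, 0.08 for TAPX and 0.09 for AT3G11630 on the log2 scale, and only 3.28%, 3.92% and 7.35% of tested probe sets had a smaller one. GR1 stood at 0.14. GR (0.22) and SAPX (0.24) exceeded the median of 0.19 over all probe sets. For both of them the widest gap was that between the wild type arrays.

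The arrays also differed in the signal of poly-A control probe sets, which are designed for bacterial transcripts used as labelling spike-ins. The labels do not say whether such spike-ins were added. These probe sets were dim, with mean log2 signals of 6.42 to 7.52, against 10.51 to 11.11 for the hybridization controls. Split at the widest gap in their mean log2 signal, 6 arrays were high (6.98 to 7.52) and 4 were low (6.42 to 6.70). The cut was not sharp, since replicate 1 of ex2/flu, at 6.98, lay between 6.70 and the next array at 7.23. Both ex1/ex2/flu arrays were high, while ex1/flu, ex2/flu, flu and wild type had 1 array in each group. In wild type the high array exceeded the low one by 0.66 log2 units for SAPX and 0.62 for GR, and in flu by 0.32 and 0.18. In ex1/flu the same differences were -0.07 and 0.16 and in ex2/flu they were -0.18 and -0.02. Each of these values sets 1 array against 1 other. The labels name no batch, and the part of labelling in these values was not tested.

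In comparisons with wild type, values within each spike-in group differed most for SAPX and GR. Against flu, GR1 also depended on the group. In ex2/flu it stood at -0.60 among the high arrays and -0.14 among the low ones, and in ex1/flu at -0.40 and 0. SAPX stood at -0.26 and 0.25 in ex2/flu and at -0.36 and 0.04 in ex1/flu. For ex1/ex2/flu against wild type the log2 difference was 0.37 for both genes over all arrays, but 0.04 (SAPX) and 0.06 (GR) among the high arrays, where wild type is replicate 2 alone. Without replicate 2 of wild type the same differences were 0.70 and 0.68, with limma adjusted p of 0.155 and 0.128. With the spike-in group as a block they were 0.28 and 0.25. For flu against wild type SAPX stood at -0.18 among the high arrays and 0.15 among the low ones, and GR at -0.03 and 0.41. TAPX kept its direction in that comparison, at -0.11 among the high and -0.24 among the low arrays. In ex2/flu against flu it stood at 0.40 and 0.37. AT3G11630 was above flu in both groups for ex1/flu (0.32 and 0.20) and ex2/flu (0.39 and 0.18), and CCS was below flu in both (-0.17 and -0.19, and -0.28 and -0.12).

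**Figure D3:**
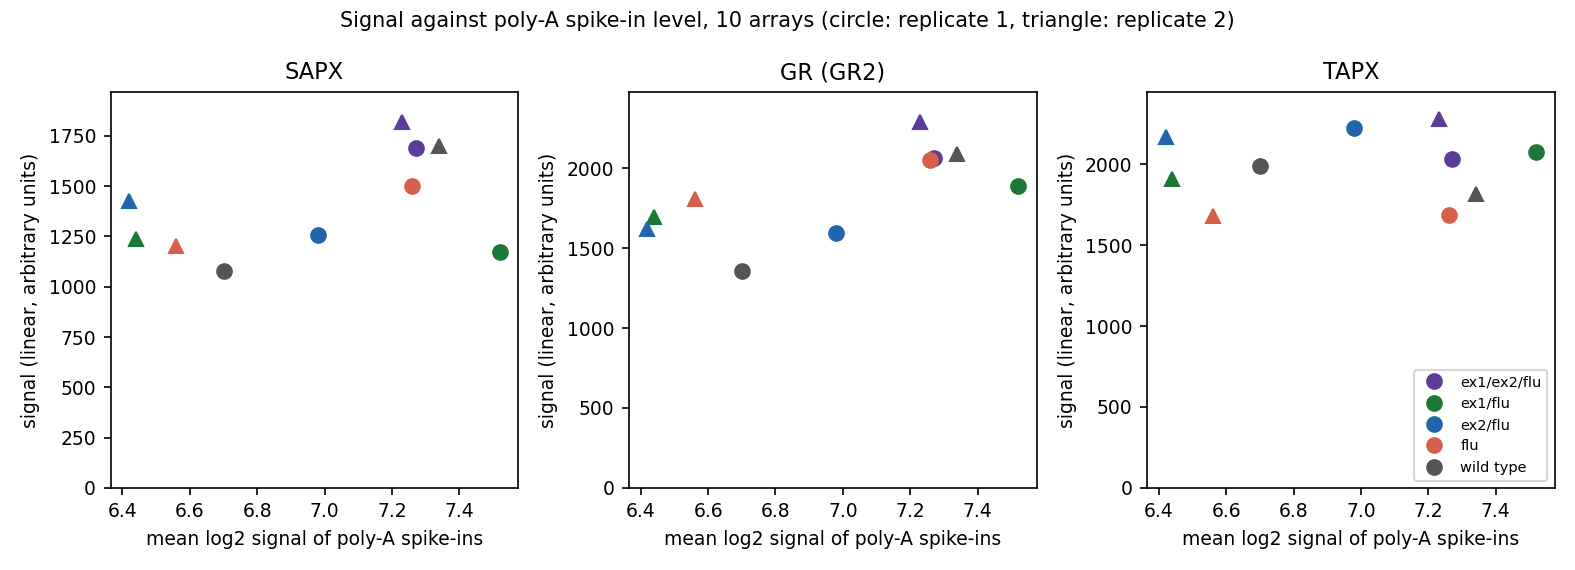
Signal (linear, arbitrary units) of SAPX, GR and TAPX on the 10 arrays against the mean log2 signal of the poly-A control probe sets, colored by genotype. The wild type array with the lower poly-A control signal has the lowest SAPX (1079) and GR (1356) signal, and TAPX shows no such gap.

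The 6 genes fell into partly separate patterns over the 10 arrays. Pearson's r of log2 signals, given here as a description of likeness with no test because arrays of a genotype share their source, was 0.82 between SAPX and GR and 0.77 between TAPX and AT3G11630. Between AT3G11630 and CCS it was -0.76, and between TAPX and GR1 -0.64. The pair of ascorbate peroxidases had an r of 0.13 and the pair of glutathione reductases 0.51, both below the values of the 2 closest pairs, which join different families.

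The closest other patterns were taken from 7814 tested probe sets assigned to 1 gene, again over 10 arrays and with no test. AT5G40020 (r 0.97) and AT2G22230 (0.96) were nearest to TAPX, and ACLA-2 (0.94), a subunit of ATP citrate lyase, and AT5G36290 (0.91) to SAPX. GR was followed most closely by THO5 (0.91), of the THO complex of mRNA export, and AT5G02530 (0.91), and GR1 by AT5G60460 (0.93) and AT1G70160 (0.90). For AT3G11630 these were AT3G09730 and AT5G64670 (both 0.91), and for CCS they were AT5G63190 (0.93) and AT5G59670 (0.91). Each such r is the best of many candidates, so a high value follows from the selection. AT5G40020 and AT3G09730 were dim, with signals of 88 to 172 and 56 to 131.

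The wider network was read from 79 further loci in 5 lists (ascorbate-glutathione cycle, superoxide dismutases with copper delivery, peroxiredoxins with the thioredoxin system, catalases with glutathione peroxidases, and synthesis of ascorbate and tocopherol). Of these 16 were represented in the array annotation and 15 were tested, 10 of them in the peroxiredoxin and thioredoxin list and 4 in the synthesis list. In the catalase list no gene was matched to a probe set, and the 1 matched in the dismutase list was too dim to be tested, so the dismutases served by CCS were not analysed here. In each of the 7 pairwise comparisons 0 of the 15 were called higher and 0 lower by limma. At an unadjusted p under 0.05 there were 3 of 15 in flu against wild type, 4 in ex1/ex2/flu, 5 in ex1/flu and 4 in ex2/flu against flu, 2 in ex2/flu against wild type and 0 in the remaining comparisons. The shares over all tested probe sets were 15.2%, 15.9%, 13% and 14.1% in the first 4 of these and 16.5% in ex2/flu against wild type.

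In flu against wild type the 15 log2 differences ran from -0.37 to 0.36, with a median of -0.06. GME, an epimerase of ascorbate synthesis, had signals of 8048 and 8807 in flu, against 6418 and 6744 in wild type, and its arrays did not overlap. Its log2 difference was 0.36 ± 0.11 (SE, n = 2 each, limma adjusted p 0.103). In ex2/flu GME gave 6311 and 6136, a log2 difference from flu of -0.44 ± 0.11. Its adjusted p there (0.0781) was the smallest of the 15 genes. GME was also lower than flu in ex1/ex2/flu (-0.26 ± 0.11, adjusted p 0.262) and ex1/flu (-0.23 ± 0.11, 0.406). All of these values share the same flu arrays. PRXIIF, the mitochondrial peroxiredoxin, whose locus also lies within 4 Mb of FLU, gave 2071 and 2073 in flu and 2788 and 2588 in wild type, at -0.37 ± 0.13 (adjusted p 0.155). Of the ascorbate-glutathione cycle list ATMDAR2, a monodehydroascorbate reductase, was the 1 gene matched to a probe set, at -0.05 ± 0.15 (0.924).

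Among the electron donors of plastid peroxiredoxins, which were picked here after their values were seen, thioredoxin y2 (ty2) gave 3272 and 3133 in flu, against 4438 and 3879 in wild type. Thioredoxin m2 (ATHM2) gave 6249 and 7428 in flu, against 9026 and 7557 in wild type. Both had their lowest mean in flu, as did TAPX and AT3G11630. For AT3G11630, though, flu and wild type arrays overlapped, and the lowest array was one of wild type. The share of all tested probe sets with their lowest mean in flu was not counted. The comparisons with flu that follow all use the same flu arrays, so they are not separate observations. Against flu, ty2 stood at 0.31 ± 0.13 (log2 difference, SE) in ex1/ex2/flu, 0.30 ± 0.13 in ex1/flu and 0.39 ± 0.13 in ex2/flu, with limma adjusted p of 0.249, 0.339 and 0.175. AT3G52960, the type II peroxiredoxin of plastids, stood at 0.31 ± 0.13, 0.27 ± 0.13 and 0.31 ± 0.13 in the same lines (0.240, 0.372 and 0.286). Other genes of the list differed in direction. NTRC, a thioredoxin reductase that serves 2-Cys peroxiredoxins, gave 2653 and 2369 in flu, against 1961 and 2276 in wild type, with a log2 difference of 0.25 ± 0.14 (0.455), and it stood at -0.04, -0.09 and -0.14 in the EXECUTER lines against flu. Thioredoxin x (THX) stood at 0.07 ± 0.18 in flu against wild type (0.907). Thioredoxin y1 (TY1), a dim probe set, stood at -0.20, -0.24 and -0.18 in the same lines against flu, each ± 0.28. Over the 10 tested genes of this list the median log2 difference from flu was 0.15, 0.25 and 0.23 in these lines, and -0.13 in flu against wild type. Over all tested probe sets the same medians were 0.04, 0.01, -0.01 and -0.04. Each of these medians contains the flu arrays, so a low flu value alone gives opposite signs.

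**Figure D4:**
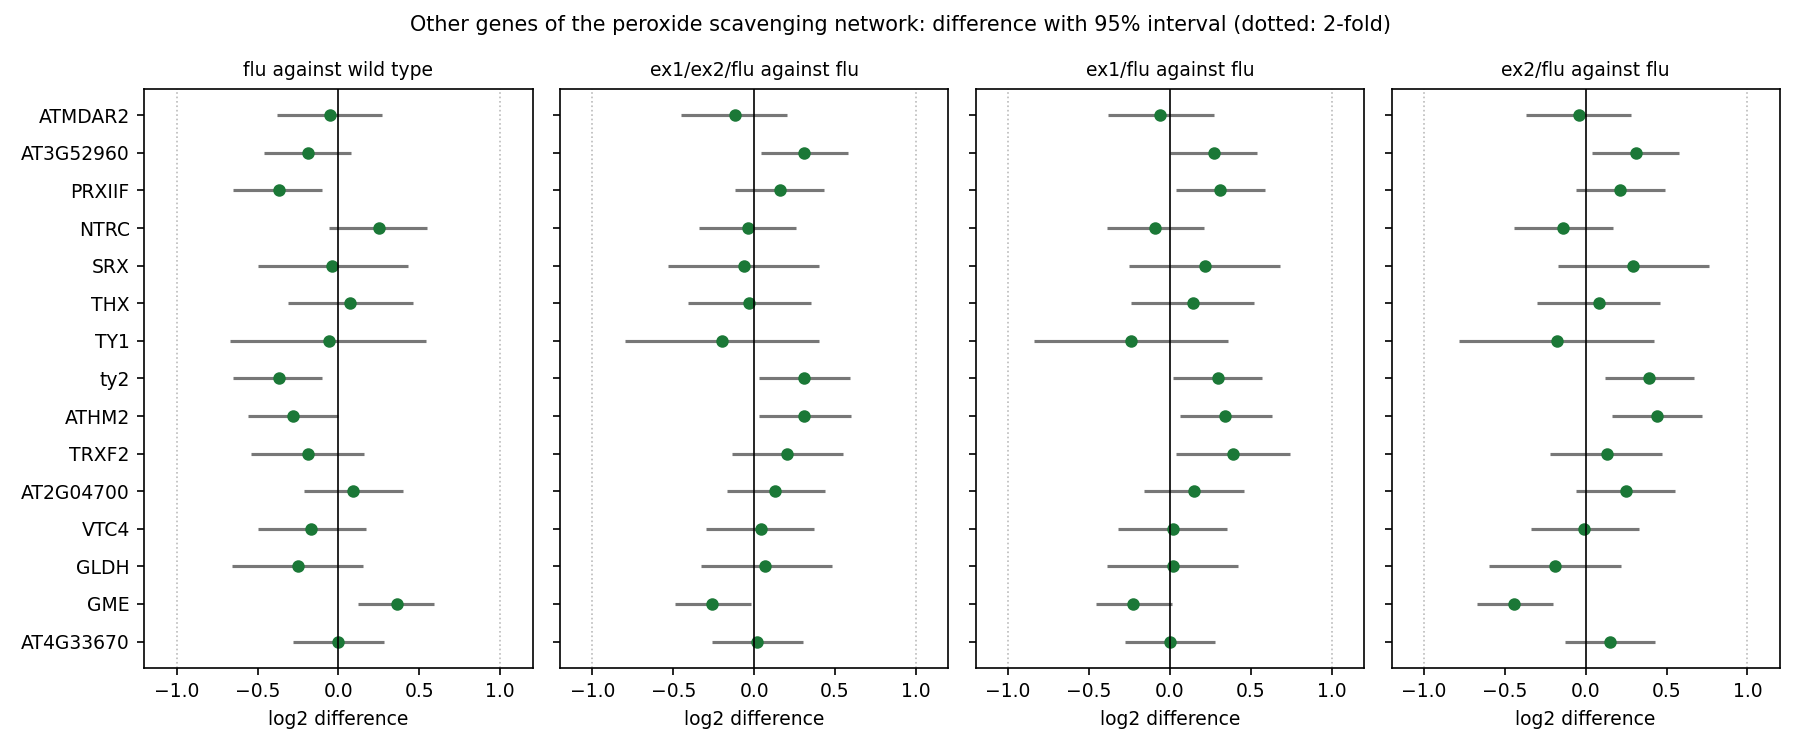
Log2 difference with limma's 95% interval for 15 other genes of the network in flu against wild type and in each EXECUTER line against flu, with dotted lines at a 2-fold difference. No gene was called, all intervals lie inside the dotted lines, and in ex2/flu against flu GME has the lowest value (-0.44) and ATHM2 the highest (0.44).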

How the data were processed

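The deposited table held MAS5-type signal intensities on a linear scale, 1 per probe set and array, and the submitters' processing notes name GCOS 1.2 and MAS5. The sources used here state no scaling target, background setting or detection call. The 64 control probe sets were set aside, and of 22746 others 14435 were kept, those above the 40th percentile in 2 or more of the 10 arrays. Signals were log2-transformed with no offset. In R 4.3.3, limma 3.58.1 with an intensity trend estimated the 5 genotype means jointly from 10 arrays (5 residual degrees of freedom), and p-values were Benjamini-Hochberg adjusted over all kept probe sets. Errors are moderated standard errors, and arrays limit the precision by their number.

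The members and lists were chosen with earlier results of these data known. Named were the 6 genes, EX1, the pathway gene with the largest difference in flu in each list without a call, and the 2 closest patterns per gene. RCA was named as the matched leaf marker, and ty2, ATHM2, AT3G52960, NTRC, THX and TY1 were chosen after their values were seen. Probe sets were named with the array's annotation table and RefSeq symbols (assembly TAIR10.1, used for names and neighbourhood only). No sequences were used. Plots used matplotlib 3.10.9 under Python 3.11.15.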

Additional observations from a re-analysis of the deposited data

How the results depend on the processing

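The count of called genes among the 6 was 0 in all 160 recomputations (quantile normalization, no filter on dim probe sets, no intensity trend, an offset of 32, blocks for replicate number and spike-in level, each of the 10 arrays left out, and only the arrays compared), with a smallest adjusted p of 0.113 and at most 4 of 6 at an unadjusted p under 0.05. Replicate numbers showed little pairing of the samples except in ex1/flu with ex2/flu. Of 10 pairs of genotypes this was the 1 with deviations correlated above 0.1 (0.43, range -0.09 to 0.43). The replicate block gave a count of 0 and a smallest adjusted p of 0.194 and changed no call. The block for poly-A spike-in level, added after seeing the data, gave 0.132. Of 48 log2 differences 36 never changed sign, and the 12 that had values on both sides of 0 were at most 0.19 in size. With 1 array left out, flu against wild type ranged from -0.34 to 0.32 (SAPX), -0.08 to 0.25 (GR1), -0.12 to 0.50 (GR), -0.14 to 0.02 (AT3G11630) and -0.10 to 0.05 (CCS). SAPX in ex2/flu against flu, at 0.00 over all arrays, ranged from -0.17 to 0.16. GR1 ranged from -0.23 to 0.10 in ex1/ex2/flu against flu and from -0.10 to 0.13 against wild type. In ex1/flu against wild type the range was -0.50 to 0.16 (SAPX) and -0.23 to 0.40 (GR), and in ex2/flu -0.35 to 0.31 and -0.38 to 0.24. The block for hybridization spike-in level, which sets wild type 2 apart, gave for flu against wild type 0.32 (SAPX) and 0.02 (AT3G11630), for ex1/flu against wild type 0.16 (SAPX), and for ex2/flu against wild type 0.31 (SAPX) and 0.24 (GR). The poly-A block gave -0.01 for GR1 in ex1/ex2/flu against wild type. The cause was not tested.

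Counts over all probe sets moved more. The 555 of flu against wild type ranged from 256 to 731, the 433 of ex1/ex2/flu against flu from 129 to 664, the 197 of ex1/flu from 58 to 314 and the 150 of ex2/flu from 8 to 303. Against wild type the 180 of ex1/ex2/flu ranged from 53 to 276, the 228 of ex1/flu from 97 to 311 and the 688 of ex2/flu from 423 to 881. The 29 of the interaction ranged from 3 to 91 and the 764 of the F test from 513 to 1110.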
